A study of Saccharomyces cerevisiae with 10 samples.

Results

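Pericentromeric peaks of the origin recognition complex (ORC) and of open chromatin were examined around the 16 centromeres of budding yeast. A peak, meaning 1 line of a deposited list, was counted as pericentromeric when its midpoint lay within 30 kb of a centromere, at positions stated to 0.1 kb for each chromosome. Of 7774 peaks in 4 lists, 859 met this rule, 6899 lay on the rest of the arms, and 16 on the 2-micron plasmid or mitochondrial DNA were left out of the comparisons. The 859 comprised 82 of 618 peaks of WT ORC, 217 of 2219 peaks of mutant ORC, 290 of 2480 ATAC-seq peaks labelled WT and 270 of 2457 labelled Orc4-IHΔ. The windows span 960 kb, 7.98% of the length covered by the lists.

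The study removed the insertion helix (IH) of Orc4, the ORC subunit element that contacts DNA bases in the major groove, and asked how this changes where ORC binds. Both strains are W303-1a derivatives of mating type MATa, carrying ade2-1, can1-100, his3-11,15, trp1-1, ura3-1 and a leu2 allele that makes them need leucine. In both, the endogenous ORC4 gene sits behind the GALS promoter (GALS-ORC4-kanMX4) and Orc6 is tagged (ORC6-MYC-hphNT1), and the integrated gene under the native ORC4 promoter is ura3-1::ORC4-URA3 in WT and ura3-1::orc4-IH_delta-URA3 in the mutant. Growth at 30 °C in YPD, whose glucose shuts GALS off, depleted endogenous Orc4 over 18 h or longer, and benomyl, which blocks microtubules, then held the cells in G2/M (20 µg/ml, about 3 h). Each strain has 1 ORC ChIP-seq list, made from 2 libraries, and 1 ATAC-seq list, made from 1 library. No spread between replicates can be computed, so no test between strains or regions was made, and intervals are at the 95% level and cover counting error only, with neighbouring peaks treated as independent. For ATAC-seq, the strain given by the sample label is the opposite of that in the list's name. The study's own peak totals per strain go with the list names, not the labels, so the strains of these lists may be exchanged. The lists are called here by their labels, and wherever ORC was set against open chromatin both ATAC-seq lists were merged into regions, 311 of 2710 of them pericentromeric.

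ORC is the protein complex that marks replication origins and loads the MCM helicase onto DNA. The centromere of budding yeast is a point centromere, a short DNA element wrapped by a single specialised nucleosome that carries the centromeric histone H3 variant Cse4, on which the kinetochore is built. The surrounding chromatin is rich in cohesin, is pulled towards the spindle poles in mitosis, and replicates early in S phase from nearby origins. ATAC-seq measures how readily a transposase cuts DNA, which is low where DNA is wrapped or covered by bound protein.

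All 4 lists were denser near centromeres than on the rest of the arms. WT ORC had 8.54 peaks per 100 kb in the windows and 4.82 on the arms, a ratio of 1.77 (interval 1.39 to 2.24), and the window was the denser part on 14 of 16 chromosomes. Mutant ORC had 22.6 against 18.1 peaks per 100 kb, a ratio of 1.25 (interval 1.08 to 1.44), with the window denser on 11 of 16 chromosomes. The ATAC-seq list labelled WT had 30.2 against 19.8 peaks per 100 kb, a ratio of 1.53 (interval 1.35 to 1.73), and its windows were denser on all 16 chromosomes. The list labelled Orc4-IHΔ had 28.1 against 19.7, a ratio of 1.43 (interval 1.25 to 1.62), and its windows were denser on 15 of 16. ORC peaks covered 3.93% of the windows in WT, against 2.32% of the arms, and 7.31% against 5.88% in the mutant.

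**Figure D1:**
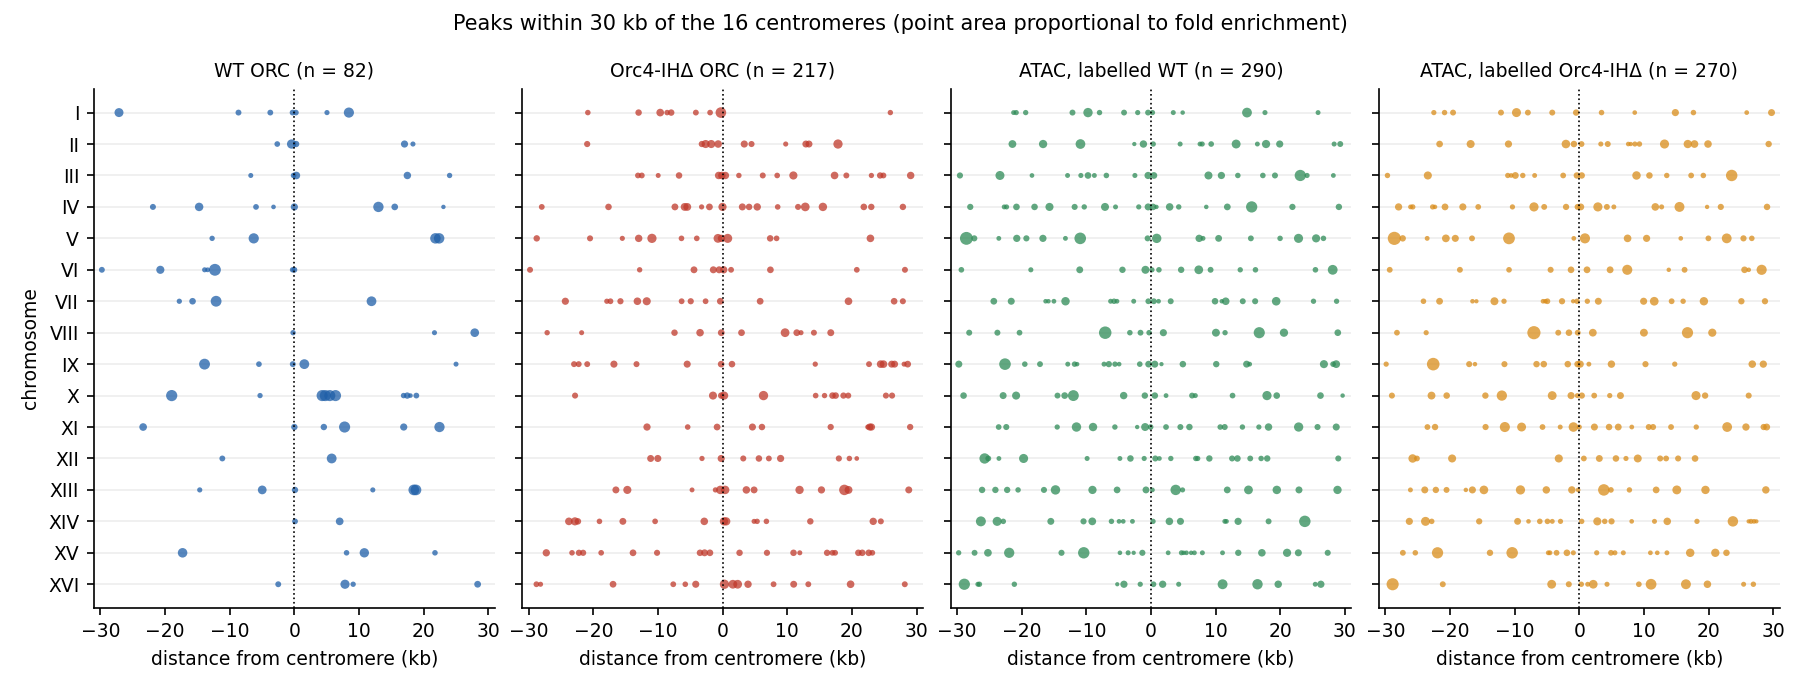
Each point is a peak within 30 kb of a centromere, with the distance of its midpoint from the centromere in kb on the horizontal axis, the chromosome on the vertical axis and an area proportional to fold enrichment, in 1 panel per list. The 82 WT ORC peaks are unevenly spread and sparser than the 217 mutant ORC peaks and the 290 and 270 ATAC-seq peaks. All 4 lists have peaks in every window and gather at the centromere itself. WT ORC has a peak within 1 kb at 10 of 16 centromeres, and each other list at 15. On chromosome I, 1 of 9 mutant ORC peaks lies right of the centromere.

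The excess was distributed differently over the windows. Mutant ORC peaks were densest next to the centromere: 62 peaks lay within 5 kb (38.8 per 100 kb). In the next steps of 5 kb, out to 25 kb, the density was between 20.0 and 21.9 per 100 kb. Between 25 and 30 kb it was 13.8 per 100 kb, below the mean of the arms. Without the innermost 5 kb on each side, the ratio of window to arm density was 1.07 for mutant ORC (interval 0.905 to 1.26). For WT ORC it remained 1.53 without them (interval 1.15 to 2.01), and for the ATAC-seq lists labelled WT and Orc4-IHΔ it was 1.35 and 1.24. WT ORC density fell from 14.4 per 100 kb within 5 kb to 6.25 between 20 and 25 kb and 3.12 between 25 and 30 kb. From 30 to 60 kb it was 4.90 per 100 kb, close to the mean of the arms.

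**Figure D2:**
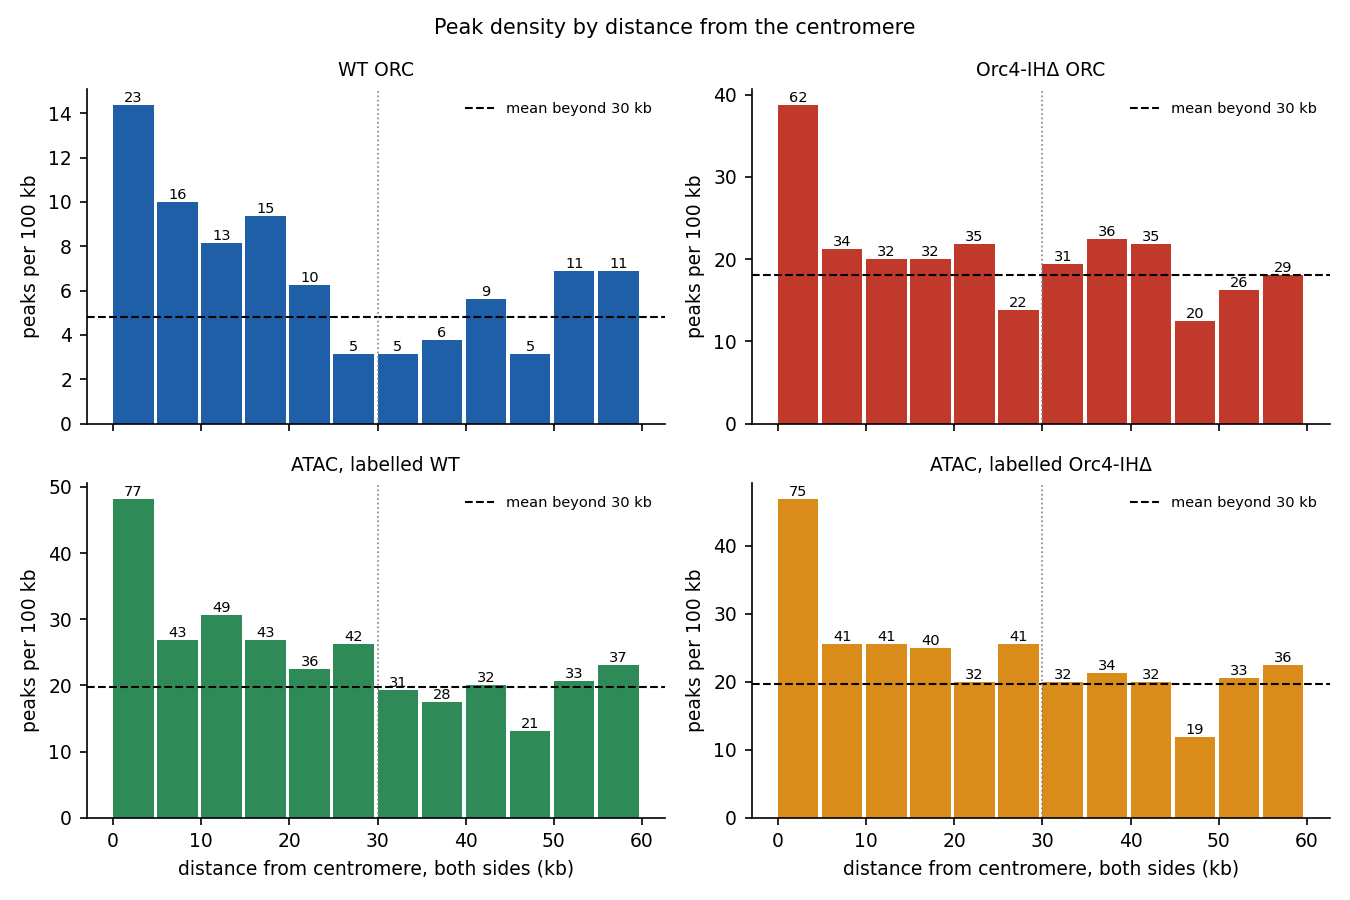
Bars give peaks per 100 kb in steps of 5 kb from the centromere, both sides added, with the number of peaks above each bar, and the dashed line is the mean beyond 30 kb. Each list is highest in the first step, with 23, 62, 77 and 75 peaks. Mutant ORC falls to near its arm mean from the second step out to 25 kb and lies below it from 25 to 30 kb. WT ORC stays above its own mean out to 25 kb.

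The number of peaks per window varied between chromosomes in all 4 lists. The windows held between 2 WT ORC peaks, on chromosomes XII and XIV, and 10, on chromosome X, where 8 of the 10 lay to the right of the centromere. Mutant ORC ranged from 9 peaks on chromosome I, 8 of them left of the centromere, to 21 on chromosome XV. The ATAC-seq list labelled WT ranged from 13 peaks on chromosome VIII to 23 on chromosome XV, and the list labelled Orc4-IHΔ from 10 on chromosome VIII to 23 on chromosomes IV and XIV. The windows richest in WT ORC and in mutant ORC were thus on different chromosomes.

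The immediate surroundings of the centromere held ORC in both strains. Within 1 kb of the centromere the mutant list had a peak on 15 of 16 chromosomes, 23 peaks in all, and the WT list had a peak on 10 of 16, 14 peaks in all. Each ATAC-seq list had a peak there on 15 of 16, with 26 peaks labelled WT and 23 labelled Orc4-IHΔ. The density within 1 kb was 9.09 times that of the arms for WT ORC (interval 4.93 to 15.4) and 3.98 times for mutant ORC (interval 2.52 to 5.99). It was 4.11 and 3.65 times that of the arms for the ATAC-seq lists labelled WT and Orc4-IHΔ. A peak of all 4 lists lay within 1 kb at 9 centromeres, those of chromosomes I, II, III, IV, VIII, IX, XI, XIII and XIV. The centromere of chromosome VI had both ORC lists but only the ATAC-seq list labelled WT.

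At 5 centromeres there was a mutant but no WT ORC peak within 1 kb: those of chromosomes V, VII, X, XII and XVI. The strongest mutant peak of these lay on chromosome XVI at 556081 to 556500 (all coordinates are in sacCer2, the build the submitters' processing notes name), 0.290 kb from the centromere, with a fold enrichment of 6.64. Fold enrichment is the peak caller's ratio of signal over local background. On chromosome V, 3 mutant peaks with fold enrichments of 6.01, 4.18 and 6.34 surrounded the centromere, the last from 152161 to 153422, and the nearest WT peak was 6.26 kb away. By systematic gene number, this centromere lies between IRC22 and MNN1, the latter a mannosyltransferase gene. On chromosome XII the mutant peak from 150590 to 150780 (fold enrichment 3.92) was the only 1 of the 23 that met no ATAC-seq region.

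The centromere of chromosome XV, between PHO80, which encodes the cyclin of the phosphate-response kinase, and RRP6, an exosome nuclease gene, was the exception for ORC. It had no ORC peak of either strain within 1 kb. The nearest mutant peak, from 324465 to 324818, lay 1.96 kb to the left, and the nearest WT peak 8.10 kb to the right. Its window nevertheless held the most mutant ORC peaks of all 16.

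**Figure D3:**
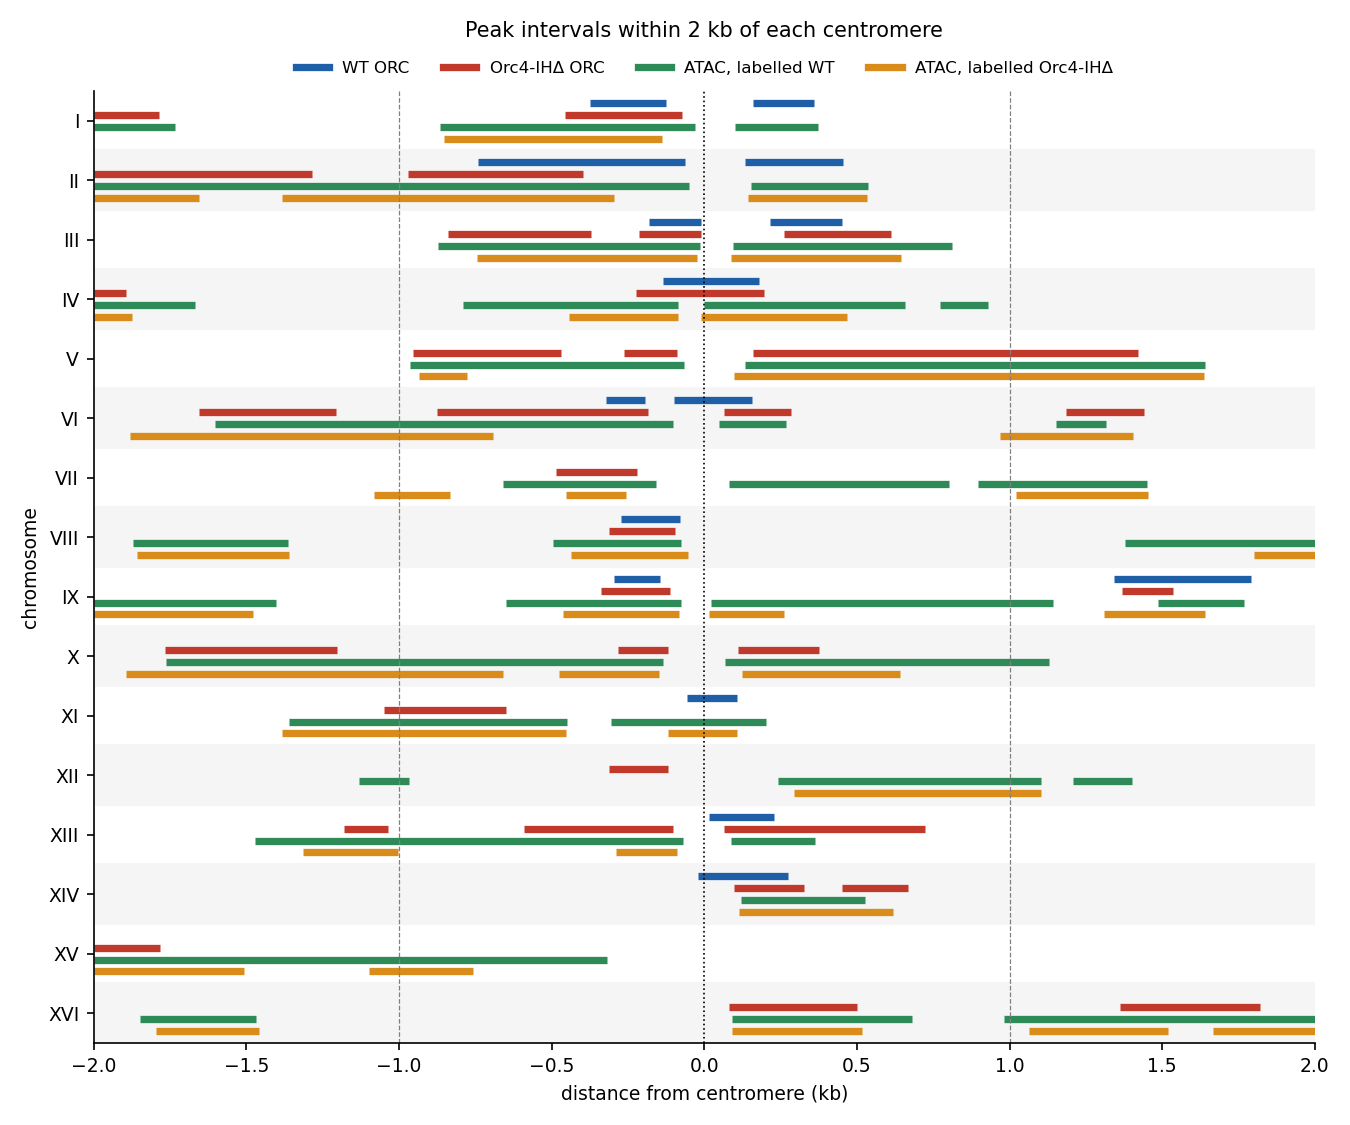
Horizontal bars are the peak intervals of the 4 lists within 2 kb of each centromere, by chromosome, with the distance from the centromere in kb on the horizontal axis, a dotted line at the centromere and dashed lines at 1 kb. On chromosomes III, IX and X the ATAC-seq intervals end just short of the centromere on both sides, and a mutant ORC peak has its midpoint within 2 kb at all 16 centromeres, within 1 kb at 15.

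At many centromeres, open chromatin was interrupted by a short gap. In the ATAC-seq list labelled WT, 9 centromeres had separate peaks on both sides, and the gap between them was 84 to 237 bp. Only peaks with midpoints within 1 kb of the centromere were used, which by itself keeps such gaps short. The middles of these gaps lay between -0.043 and 0.04 kb from the stated centromere positions. Peaks were taken from both sides of those positions, which by itself keeps the middles near them, so this is only a weak check of the positions. In the list labelled Orc4-IHΔ, 6 centromeres had such a pair, with gaps of 77 to 874 bp, the longest on chromosome V. Their middles lay between -0.339 and 0.033 kb from the stated positions. On the arms, 7.10% of gaps between neighbouring peaks labelled WT were no longer than 237 bp. Of arm gaps in the list labelled Orc4-IHΔ, 18.9% were no longer than 874 bp. On chromosome III the peaks labelled WT ended at 114387 and resumed at 114494, and those labelled Orc4-IHΔ ended at 114377 and resumed at 114490. On chromosome IX the gaps were 100 and 97 bp, in the same order. On chromosome XI, in contrast, both lists had a peak across the centromere position, from 439896 to 440401 and from 440081 to 440308.

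Most listed ORC intervals within 1 kb of the centromere did not cross its stated position. Of the 15 centromeres with a mutant peak within 1 kb, only that of chromosome IV had a single listed mutant interval across the stated position. It ran from 449578 to 449995, and there the WT interval from 449666 to 449979 crossed the position too. WT intervals crossed the position on 4 of the 10 chromosomes with a WT peak within 1 kb, IV, VI, XI and XIV. Median widths of the peaks within 1 kb were 223.5 bp in WT and 351 bp in the mutant. Intervals this narrow lie beside most points by their width alone, and the part of width was not tested. In the 5 cases in which listed mutant intervals flanked a centromere on both sides, the gap between them was 169 to 271 bp. In the 4 such WT cases it was 94 to 285 bp. Only peaks with midpoints within 1 kb were paired, which by itself keeps these gaps short. On the arms, 9.86% of gaps between neighbouring mutant peaks were no longer than 271 bp. For WT, 15.7% of arm gaps were no longer than 285 bp. The gap of 169 bp, on chromosome XIII, lies between pieces of 1 called mutant peak, listed from 267512 to 267996 and from 268166 to 268823. Taken as a whole, that called peak extends across the stated position. Positions are stated to 0.1 kb, so crossing is uncertain for intervals that end near the centromere.

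In WT, the peaks at the centromere had lower fold enrichments than those farther out in the windows. The 14 WT peaks within 1 kb had fold enrichments of 2.20 to 6.65, with a median of 2.64, where the arms had 2.89. Of these 14, 1 reached 5 (7.14%, interval 1.27% to 31.5%). Between 1 and 30 kb the median was 3.48, the highest value 10.8, and 28 of 68 peaks reached 5 (41.2%, interval 30.3% to 53.0%), against 157 of 533 on the arms (29.5%, interval 25.7% to 33.5%). The value 5 was chosen after the values were seen. The 28 include all 8 WT lines in the windows that are pieces of a called peak, each listed with the value of the whole peak. This raises the window share, and the arms hold such pieces too. Shares with the pieces joined were not computed. In the mutant the order was the opposite. The 23 mutant peaks within 1 kb had a median fold enrichment of 4.36, with values of 3.32 to 8.67. Those from 1 to 30 kb had a median of 3.18, and those on the arms 3.13. The single WT peak above 5 at a centromere lay on chromosome II (237459 to 238137, value 6.65).

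The 3 strongest pericentromeric ORC peaks of WT and of the mutant did not coincide. In WT they were on chromosome VI from 135608 to 137066 (fold enrichment 10.8, 12.3 kb left of the centromere), on chromosome X from 416949 to 417951 (9.66, 19.0 kb left) and on chromosome XI from 447466 to 448524 (9.51, 7.79 kb right). The last 2 had no mutant counterpart, and the next strongest without one was a piece on chromosome X from 440603 to 440834. It belongs to 1 called peak listed in 4 pieces, all with the value 9.46, of which the longest, from 442142 to 443438, did meet a mutant peak. In the mutant the strongest was on chromosome I at 151045 to 151427 (8.67), 0.265 kb left of the centromere, which lies between TFC3, a gene for a subunit of the RNA polymerase III factor TFIIIC, and NUP60, a nucleoporin gene. The next were on chromosome XIII from 286764 to 287115 (8.47, 18.8 kb right) and on chromosome X from 442527 to 442929 (6.73, 6.33 kb right), and these 3 all met a WT peak. Among mutant peaks without a WT counterpart, the chromosome XVI peak at the centromere was followed by one of 6.58 (chromosome II, 255878 to 256224) and one of 6.56 (chromosome V, 140438 to 141709).

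Sharing between strains was measured as an overlap of at least 1 bp with a peak of the other list. Of the 82 pericentromeric WT ORC peaks, 50 met a mutant peak (61.0%, Wilson interval 50.2% to 70.8%), where 44.8% of the whole WT list did. On the arms 42.4% did, which is 18.6 percentage points lower (interval of the difference 6.95 to 29.2). Of the 217 mutant peaks, 51 met a WT peak (23.5%, interval 18.4% to 29.6%), where 14.0% of the whole mutant list did, and 12.9% on the arms, a difference of 10.6 points (interval 5.22 to 16.8). The share among mutant peaks was 26.04% within 10 kb, 29.7% from 10 to 20 kb, 12.3% from 20 to 30 kb and 9.04% from 30 to 60 kb. With a reciprocal overlap of 50% the WT shares were 23.2% and 18.0%, and the interval of their difference included 0 (-3.39 to 15.8 points). With the weaker 50% of each list, by fold enrichment, left out, the WT share was 34.1% both in the windows and on the arms. The mutant shares were then 13.1% and 9.90%, and the interval of their difference included 0 (-2.06 to 10.5 points). At a reciprocal overlap of 50% the mutant shares were 8.76% and 4.80% (interval of the difference 0.708 to 8.55 points). Each ORC list itself covered more of the windows than of the arms, and the part of this in the differences was not tested.

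Pairs of overlapping ORC peaks fell into contrasting kinds. Within 1 kb of the centromere, 9 of 11 pairs had the higher fold enrichment in the mutant list, with medians of 2.60 in WT and 4.36 in the mutant. Between 1 and 30 kb, 20 of 39 pairs were higher in the mutant list and 19 in the WT list. All 14 pairs whose WT peak had a fold enrichment of 5 or more were higher in WT, with medians of 8.07 and 3.27, while 29 of the 36 pairs with a weaker WT peak were higher in the mutant. An example of the first kind is the WT peak of chromosome VI with a value of 10.8, whose mutant counterpart from 135656 to 135886 had 2.24. An example of the second is the chromosome I centromere, where WT had 2.60 and the mutant 8.67. The pair on chromosome XIII from 286749 to 287120 in WT was about as strong in both, with 8.81 and 8.47. The lists were called separately and a split by the WT value itself favours such an order, so these values are a description.

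**Figure D4:**
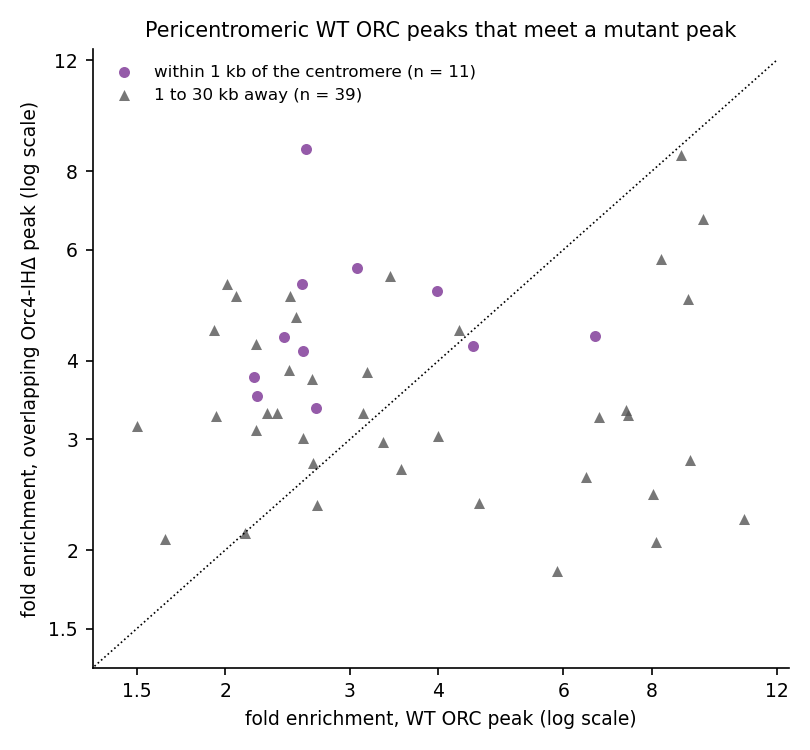
Each point is 1 of the 50 pericentromeric WT ORC peaks that meet a mutant peak, with its fold enrichment on the horizontal axis and that of the mutant peak with the largest overlap on the vertical axis, both on log scales, with a dotted line of equality. Of the 11 pairs within 1 kb of a centromere (circles), 9 lie above the line, and all 14 pairs with a WT value of 5 or more lie below it.

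WT ORC peaks lay at open chromatin more often near centromeres. In the windows 47 of 82 met a merged ATAC-seq region (57.3%, interval 46.5% to 67.5%), where 36.9% of all nuclear WT peaks did, and 33.8% on the arms, a difference of 23.5 points (interval 11.99 to 34.4). The share was 71.8% within 10 kb, 57.1% from 10 to 20 kb and 20.0% from 20 to 30 kb, where only 15 peaks were counted, and 25.5% from 30 to 60 kb. All 14 WT peaks within 1 kb of a centromere met an ATAC-seq region. Among WT peaks without a mutant counterpart, 14 of 32 were at open chromatin in the windows (43.8%) and 48 of 307 on the arms (15.6%), a difference of 28.1 points (interval 11.9 to 45.4). Among WT peaks with one, the shares were 66.0% and 58.4%, and the interval of the difference included 0 (-7.59 to 20.9). With the weaker 50% of each list left out, the shares of WT peaks at open chromatin were 29.5% and 28.8%, and with a reciprocal overlap of 50% they were 11.0% and 9.76%. Merged ATAC-seq regions covered 18.7% of the windows and 12.6% of the arms, and the part of this in the difference was not tested.

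For mutant ORC the difference depended on the width of the window. Within 30 kb, 157 of 217 peaks met an ATAC-seq region (72.4%, interval 66.0% to 77.9%), where 69.5% of all nuclear mutant peaks did, and 69.2% on the arms, a difference of 3.17 points (interval -3.44 to 9.06). Within 10 kb the share was 81.2%, a difference of 12.3 points from all peaks farther out (interval 3.13 to 19.1), and it was 61.4% from 20 to 30 kb. The largest group, mutant peaks at open chromatin with no WT counterpart, made up 123 of 217 in the windows (56.7%) and 61.9% on the arms.

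WT ORC peaks found neither in the mutant nor at open chromatin made up 18 of 82 near centromeres (22.0%) and 259 of 533 on the arms (48.6%). Per length this class was not detectably sparser in the windows, with 1.88 against 2.34 peaks per 100 kb (ratio 0.801, interval 0.467 to 1.29). WT peaks in the other classes were denser there. Those shared with the mutant and at open chromatin had 3.44 against 1.19 per 100 kb (ratio 2.88, interval 1.91 to 4.25), and those at open chromatin without a mutant counterpart 1.46 against 0.434 (ratio 3.36, interval 1.71 to 6.20). The median fold enrichment of peaks in neither was 5.64 in the windows and 2.42 on the arms, and 11 of the 18 reached 5, as did 50 of the 259. After pieces of 1 called peak were joined, a setting chosen for this group after seeing the data, 14 remained with a median of 3.93, and 7 of them reached 5, against 2.39 on the arms. Without the outer 30 kb of each chromosome, 49.9% of arm peaks were still of this kind.

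**Figure D5:**
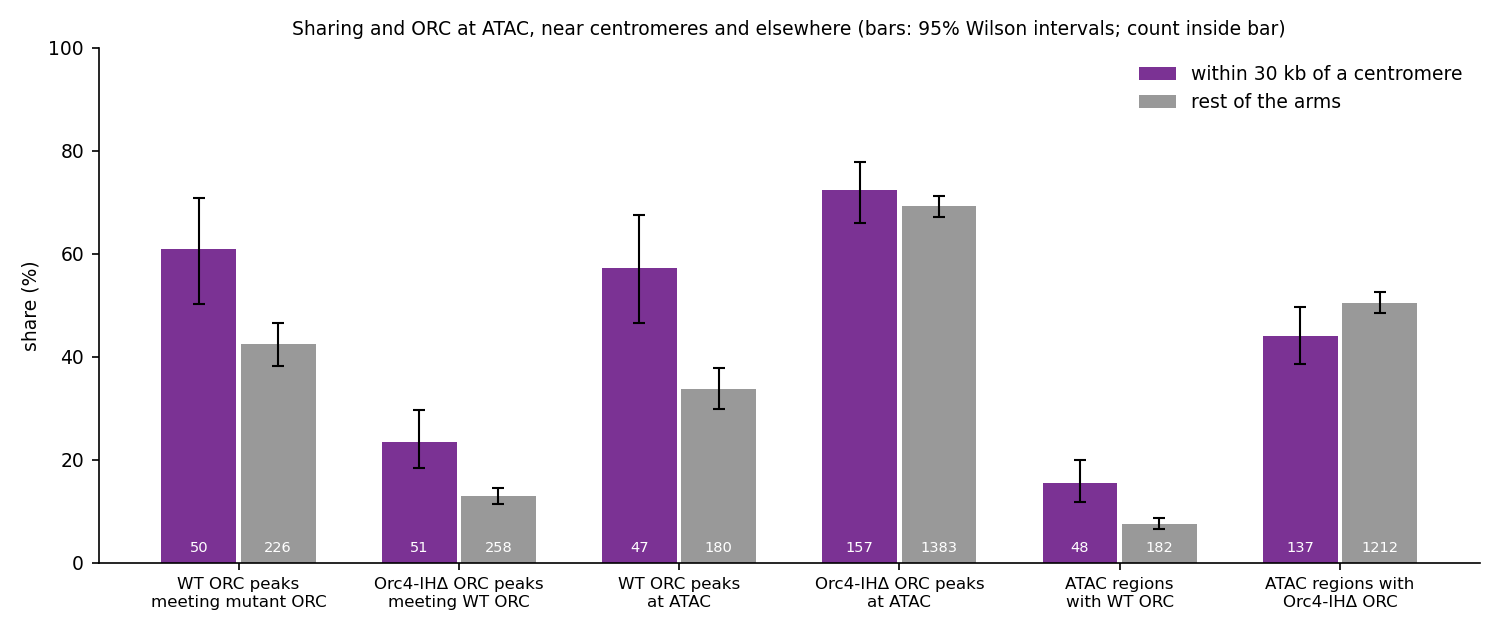
Bars are shares in percent, within 30 kb of a centromere (purple) and on the rest of the arms (grey), with 95% Wilson intervals and the count behind each share inside its bar. WT ORC peaks meet mutant peaks (61.0% against 42.4%) and ATAC-seq regions (57.3% against 33.8%) more often in the windows, and ATAC-seq regions meet mutant ORC at 44.1% against 50.5%, a difference that turned with windows of 10 kb on each side.

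Viewed from open chromatin, the windows held more WT ORC than the arms, and for mutant ORC the direction depended on the window. Of the 311 pericentromeric ATAC-seq regions, 48 held a WT ORC peak (15.4%, interval 11.8% to 19.9%), where 8.49% of all regions did, and 7.59% on the arms, a difference of 7.85 points (interval 4.08 to 12.4). A mutant ORC peak was found at 137 (44.1%, interval 38.6% to 49.6%), where 49.8% of all regions had one, and 50.5% on the arms, a difference of -6.47 points (interval -12.2 to -0.564). The mutant share was 53.0% within 10 kb (interval 44.6% to 61.2%), 41.5% from 10 to 20 kb, 32.5% from 20 to 30 kb (interval 23.4% to 43.2%) and 51.5% from 30 to 60 kb (interval 44.6% to 58.2%). The lower shares lay in the outer part of the windows. With 10 kb on each side the difference was 3.37 points in the other direction, with an interval that included 0 (-5.26 to 11.8). At 20 kb it was -1.67 (interval -8.37 to 5.08) and at 50 kb -3.28 (interval -8.34 to 1.83), so of these widths only 30 kb gave an interval without 0. With centromere positions moved 1 kb to the right it was -5.35 (interval -11.1 to 0.541). The difference also turned, to 4.19 points (interval -4.20 to 12.9), with the weaker 50% of each list left out. The interval of the original difference included 0 without chromosome II, V, IX, XII or XVI. Other settings moved it away from 0. It was -8.77 (interval -14.7 to -2.63) without the innermost 1 kb and -10.8 (interval -17.2 to -4.02) without the innermost 5 kb. With a reciprocal overlap of 50% it was -7.41 (interval -11.8 to -2.38). For WT ORC, that overlap gave shares of 2.89% and 2.17%, and the interval of their difference included 0 (-0.791 to 3.29). The WT difference was 4.59 points (interval 0.223 to 10.9) with the weaker 50% of each list left out. By their name the ORC lists leave out peaks at RNA genes, and how much this lowers these shares was not tested. Regions with at least 2 mutant ORC peaks made up 6.43% in the windows and 6.64% overall.

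Pericentromeric ATAC-seq peaks were more numerous but weaker than those on the arms. Their median fold enrichment was 2.75 against 3.21 for those labelled WT and 2.90 against 3.17 for those labelled Orc4-IHΔ, and the highest values were 12.8 and 13.4 in the windows against 23.5 and 21.3 on the arms. Median widths were alike, 448 against 452 bp and 426.5 against 419 bp. All merged regions were ranked by fold enrichment into 4 groups of nearly equal size, from the weakest (group 1) to the strongest (group 4). Group 4 held 52 of the 311 pericentromeric regions (16.7%) and 26.1% of those on the arms. A mutant ORC peak was present at 28.7% of pericentromeric and 30.5% of arm regions in group 1, at 26 of 84 and 41.2% in group 2, at 56.8% and 53.4% in group 3 and at 73.1% and 75.4% in group 4. Mutant ORC was thus more frequent at stronger regions in the windows as on the arms. Stronger regions were also wider, with median widths of 230.5 bp in group 1 and 920 bp in group 4 in the windows. On the arms these medians were 215 and 943.5 bp. A wider region more readily meets a peak by 1 bp, and the part of width in these shares was not tested. WT ORC was present at 19.1% of pericentromeric and 6.61% of arm regions in group 1, at 8 of 84 and 27 of 587 in group 2, at 16.0% and 7.72% in group 3 and at 17.3% and 11.2% in group 4. For WT ORC the windows had the higher share in all 4 groups.

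The strongest open sites near centromeres were the same in both lists for chromosomes V and VIII. The peak on chromosome V from 122977 to 123935 had 12.8 (labelled WT), and that from 123044 to 123723 had 13.3 (labelled Orc4-IHΔ). On chromosome VIII the peaks from 97946 to 99103 and from 97997 to 99153 had 11.98 and 13.4. Next came a peak on chromosome V from 140395 to 141724 (10.3) among those labelled WT, where the mutant-only ORC peak of value 6.56 lies, and one on chromosome IX from 332552 to 333646 (12.2) among those labelled Orc4-IHΔ.

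Of the 290 pericentromeric ATAC-seq peaks labelled WT, 240 met the other list (82.8%, interval 78.0% to 86.7%), where 86.7% of the whole list did, and 87.2% on the arms, a difference of -4.39 points (interval -9.35 to -0.214). That interval included 0 without chromosome I, IV, VII, IX, X, XII or XVI. Of the 270 in the list labelled Orc4-IHΔ, 240 did (88.9%), where 88.4% of the whole list did, and 88.5% on the arms, a difference of 0.403 points (interval -4.09 to 3.91). The median fold enrichment of peaks unmatched in the other list was 1.91 and 1.85. The highest of these labelled WT were at 582021 to 582541 on chromosome XVI (4.05), at 290737 to 291252 on XIII (3.75) and at 422772 to 423332 on X (3.44). Those labelled Orc4-IHΔ were at 156361 to 156761 on chromosome XII (3.29), at 491979 to 492147 on VII (2.52) and at 565130 to 565284 on XVI (2.47). If the list names are right, each of these belongs to the other strain.

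At the 30 kb limit, the WT ORC peak just inside lay 29.8 kb from the centromere of chromosome VI (fold enrichment 2.66) and the one just outside 30.1 kb from that of chromosome XIII (4.43). For mutant ORC these were a peak of 2.75 on chromosome VI and one of 3.70 on chromosome X. Among ATAC-seq peaks labelled WT they had values of 2.19 and 4.23, on chromosomes XV and XIII, and among those labelled Orc4-IHΔ of 2.12 and 4.57, on chromosomes IX and XV.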

How the data were processed

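Peak lists of ORC ChIP-seq and ATAC-seq from cells arrested in G2/M were analysed. The submitters' processing notes name sacCer2, MACS2 2.1.1.20160309 and Picard for both assays, Bowtie 1.2.2, SAMtools 1.3.1 and bedtools 2.27.1 for ORC, and Bowtie2 2.3.4.1 for ATAC-seq. The authors deposited for each peak a fold enrichment, a linear ratio over background, and −log10 p and −log10 q values. The ORC lists combine 2 libraries, and their name reads as peaks common to the libraries without those at RNA genes. ATAC-seq regions at such genes can then hold no listed ORC peak, and the part of this in the shares was not tested. The lists give no read depth, so a missing peak is not shown to be absent binding. Some called peaks are listed in pieces under 1 name (8 WT and 28 mutant ORC lines in the windows).

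Peaks were assigned to windows by midpoint, with chromosome length taken as the largest peak end. The build of the centromere positions is not given in the sources used here. An overlap of at least 1 bp counted as shared. Clopper-Pearson intervals for density ratios, Wilson intervals for shares and Newcombe intervals for their differences were computed at the 95% level. Named peaks were the nearest to each centromere, printed where within 1 kb or singled out, the 3 strongest and the 3 strongest found in 1 list only, the fullest and emptiest windows, and those next to the 30 kb limit. Genes flanking a centromere were taken from systematic gene numbers, which count outward from it, in RefSeq assembly R64, with no coordinates. Overlap counts were checked on simulated data. The members and lists were chosen with earlier results of these data known. The MCM, BrdU and MNase libraries were not analysed here. Intervals came from scipy 1.17.1, tables from pandas 2.3.3 and numpy 2.4.6, and plots from matplotlib 3.10.9, under Python 3.11.15.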

Additional observations from a re-analysis of the deposited data

How the results depend on the processing

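Of 338 alternative values over 12 results, 309 stayed within the interval of the reported value, 27 left it and 2 turned a difference whose interval had excluded 0. Signs changed in 16 values: those 2, 2 of mutant ORC at ATAC-seq regions and 12 of sharing in the ATAC-seq list labelled Orc4-IHΔ, both of which had intervals that included 0. Leaving out the innermost 1 kb or 5 kb was chosen after seeing the data. Leaving out each chromosome in turn kept all 12 results within their intervals and moved the density ratio of WT ORC between 1.65 and 1.90 and that of mutant ORC between 1.21 and 1.28. No paired analysis was possible because each group has 1 list and the results come from no test.

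Density ratios of window to arms depended on the window. With 10 kb on each side they were 2.48 for WT ORC, 1.66 for mutant ORC, 1.86 for the ATAC-seq list labelled WT and 1.82 for that labelled Orc4-IHΔ. With 50 kb they were 1.37 for WT ORC and 1.26 and 1.22 for the ATAC-seq lists. Without the innermost 5 kb they were 1.07 for mutant ORC and 1.35 and 1.24 for the ATAC-seq lists. With the weaker 50% of each list left out they were 1.197 and 1.24 for the ATAC-seq lists.

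Differences in share, window minus arms, are in percentage points. With 10 kb, WT ORC at ATAC-seq regions differed by 37.2, mutant ORC by 12.3 (interval 3.13 to 19.1), regions with WT ORC by 13.8 and regions with mutant ORC by 3.37, a change of direction. With 50 kb, the mutant peaks shared with WT differed by 4.43. With the weaker 50% left out, shared peaks differed by 0 for WT ORC, 3.22 for mutant ORC and -7.21 (from 0.403) for the ATAC-seq list labelled Orc4-IHΔ, WT ORC at ATAC-seq regions by 0.758 and regions with mutant ORC by 4.19, a change of direction. With a reciprocal overlap of 50%, shared peaks differed by 5.16 for WT ORC, 3.95 for mutant ORC, -11.0 for the ATAC-seq list labelled WT and -6.31 for that labelled Orc4-IHΔ, WT and mutant ORC at ATAC-seq regions by 1.22 and -4.48 (the latter from 3.17), and regions with WT ORC by 0.726. Without the innermost 5 kb, mutant ORC at ATAC-seq regions differed by -3.38. The causes were not tested. Leaving out weaker peaks keeps fewer peaks by construction.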
